A study of Saccharomyces cerevisiae with 15 samples.

Results

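The small subunit of the cytosolic yeast ribosome, the 40S subunit, is built on one ribosomal RNA and a set of ribosomal proteins whose genes carry the symbol RPS. Probe sets were taken as members when their gene symbol was RPS followed by a number and, where there is one, the letter A or B. This gave 66 of the 10928 probe sets on the array, and after probe sets of the same gene were reduced to one, 60 measured features of the 5622 yeast features tested. Of the 56 RPS genes in the gene table, 50 had a probe set of their own. A further 10 probe sets are shared, meaning that their identifier or the authors' workbook ties them to several genes, and RPS4A, RPS4B, RPS6A, RPS6B, RPS30A and RPS30B were seen only through these. All 66 probe sets were called present on all 15 arrays.

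The 40S subunit binds mRNA, scans to the start codon and holds the decoding centre where codon and tRNA meet. It has a head, a body and a platform. Most yeast ribosomal protein genes survive as a pair of paralogues, marked A and B, that encode the same or nearly the same protein. Their transcription is driven largely through Rap1, Fhl1, Ifh1 and Sfp1 under control of the TOR and protein kinase A pathways, and many stresses are known to lower ribosomal protein mRNA.

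The series measured total RNA of Saccharomyces cerevisiae on Affymetrix arrays, with 3 arrays in each of 5 groups: y1y8, yap1, yap8 and wild-type (WT) cells, all given arsenate (AsV) for 60 min, and WT cells without agent at 0 min. Yap1 and Yap8 are transcription factors of the bZIP class, known for the oxidative stress response and for arsenic resistance, and Yap8 is the product of the gene whose standard name is ARR1. The series text gives the arsenate as 2 mM and describes yap1yap8 cells carrying empty vectors or plasmids with YAP1 or YAP8, grown in triplicate in arsenate to exponential phase. Such growth differs from the 60 min of the labels, which are followed here, and the difference could not be settled. The labels do not say which group carries which plasmid, nor whether the 3 arrays of a group are separate cultures, so p-values measure the spread between arrays. Treated and untreated WT cells also differ in sampling time (60 against 0 min), and treatment and time cannot be told apart. No array is of untreated mutant cells, so a mutant difference under arsenate cannot be told apart from one present before it.

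The labels were checked through the deleted genes. YAP1 had a normalized signal of 643, 573 and 550.4 on the y1y8 arrays and 502, 627 and 660.3 on the yap1 arrays, against 3325, 3602 and 2911 in treated WT cells. ARR1 stood at 6.39, 3.29 and 2.12 in y1y8 and 5.31, 4.25 and 5.21 in yap8, against 2284, 2291 and 2669.9 in treated WT cells. The YAP1 signal was thus reduced in y1y8 and yap1 but not lost, while that of ARR1 was nearly lost in y1y8 and yap8. What the remaining YAP1 signal stands for was not tested. Before normalization the median signal of the yeast probe sets ran between 548 and 934 over the 15 arrays, 98.4 to 99.3% of them were called present, and arrays of one group correlated at 0.980 to 0.995. The number of arrays limits the precision.

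In WT cells given arsenate, every one of the 60 small subunit features was lower than in untreated cells (60 of 60 at an adjusted p under 0.05 by limma, where 39.3% of all 5622 features were lower). The median log2 change was -2.12 over the members and 0.03 over all features. The fall was at least 2-fold for 57 members (17.9% of all features) and at least 4-fold for 35 (5.51% of all features). For all 60 members the treated and untreated WT arrays did not overlap, as was the case for 82.4% of all features in either direction. For each member all 12 treated arrays, mutants included, also stood below the lowest untreated array, which was not counted over all features. An array reports RNA relative to other RNA, so a loss of these mRNAs per cell and a gain of other RNA cannot be told apart.

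**Figure D1:**
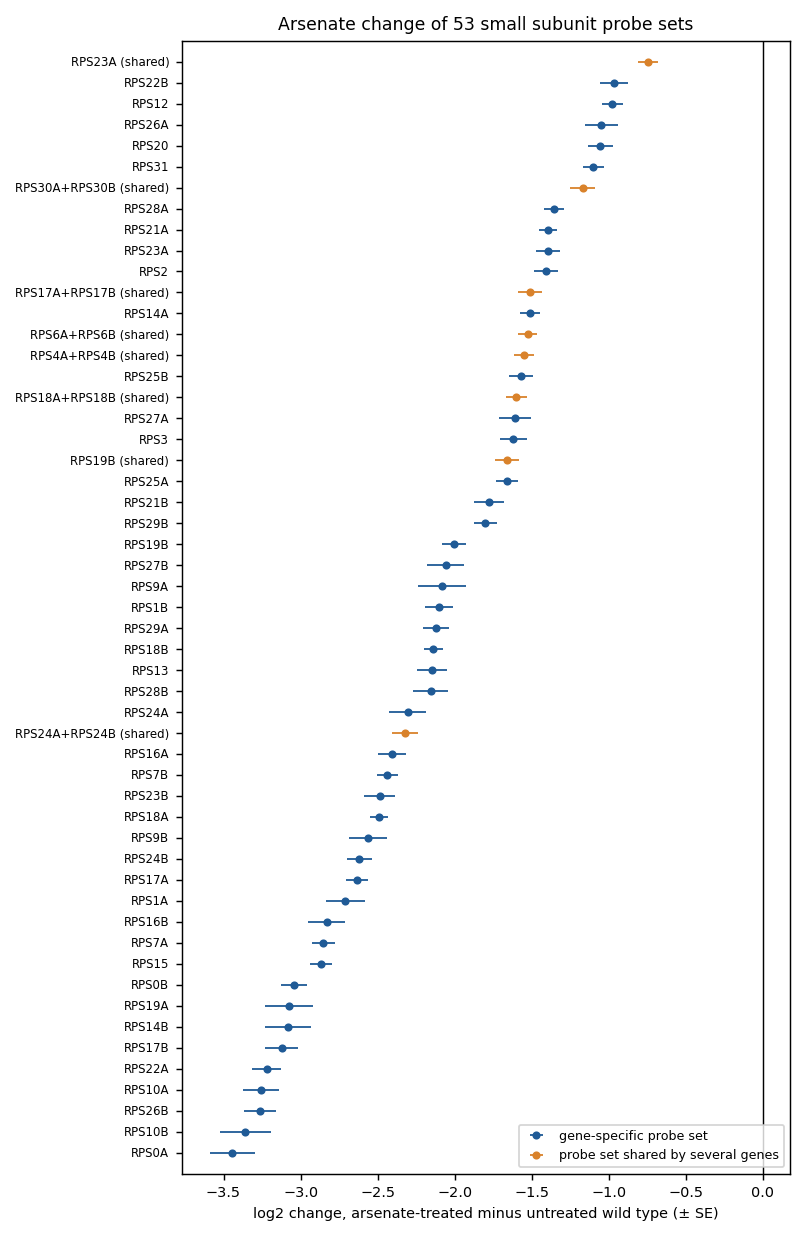
Change of 53 small subunit features in arsenate-treated against untreated wild-type cells, on the log2 scale, with its standard error (3 arrays a group). All points lie below 0, between -3.44 for RPS0A and -0.74 for the shared RPS23A probe set.

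The members differed among themselves by more than their errors. RPS0A, which encodes a protein needed to mature the 40S subunit, had a normalized signal of 489.7, 501 and 523 on the treated WT arrays, against 5625, 5273 and 5554 on the untreated ones. It fell by 3.44 ± 0.15 on the log2 scale, which is 10.9-fold (adjusted p = 1.24e-10, limma). Its paralogue RPS0B averaged 842 ± 84.8 in treated and 6920.1 ± 260.3 in untreated cells (SD, n = 3 each), a log2 change of -3.04. RPS10B and RPS10A, whose protein sits in the head near the mRNA entry, changed by -3.36 and -3.26. Also among the 8 largest falls were RPS26B (-3.26), RPS22A (-3.22), RPS17B (-3.12) and RPS14B (-3.08). Each of the 8 genes belongs to a paralogue pair, as do 42 of the 50 genes with a probe set of their own.

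At the other end, the shared RPS23A probe set had 5395, 5919 and 5588 in treated WT cells, against 9476, 9441 and 9365 in untreated ones, a log2 change of -0.74 ± 0.06 (adjusted p = 1.24e-07, limma). RPS22B (-0.96), RPS12 (-0.98) and RPS26A (-1.05) made up the rest of the 4 smallest falls. The groups still did not overlap for any of these 4.

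The 8 members without a paralogue had a median change of -1.51, and the 42 genes with one and with a probe set of their own a median of -2.46. RPS15, whose protein acts in nuclear export of the 40S precursor, averaged 1338 ± 71.1 in treated and 9778 ± 452 in untreated WT cells (SD, n = 3 each) and changed by -2.87. RPS13, a body protein (-2.15), also fell by more than 4-fold. RPS3 (-1.62) and RPS2 (-1.41), which line the mRNA entry channel, RPS31 (-1.10), made as a fusion to ubiquitin, RPS20 (-1.05), a head protein, and RPS12 (-0.98) fell by less. Sorted by place in the subunit, a sorting made after the values were seen, the 22 genes of head proteins had a median of -2.13 with a range of -3.36 to -0.98, and the 28 of body and platform proteins a median of -2.46 with a range of -3.44 to -0.96.

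The kind of probe set went with the size of the fall. The 10 shared probe sets had a median log2 change of -1.54 and the 50 gene-specific features one of -2.23. A shared probe set could be set beside the specific probe sets of both paralogues for 7 pairs, and for 6 of these it fell less than either. For RPS18 the shared probe set changed by -1.60, while RPS18A changed by -2.49 and RPS18B by -2.14. RPS24 was the exception, at -2.32 for the shared probe set, -2.30 for RPS24A and -2.62 for RPS24B. The untreated signals of the members were high on the scale of the scanner values, with a median between 7880 and 8389 per array, where the brightest probe set of an array read between 10787 and 12565. Whether the top of the scale bears on the size of a fall was not tested. For 6 genes an additional probe set marked as open to cross-hybridization could be set beside the plain one, and these differed by at most 0.32 on the log2 scale.

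**Figure D2:**
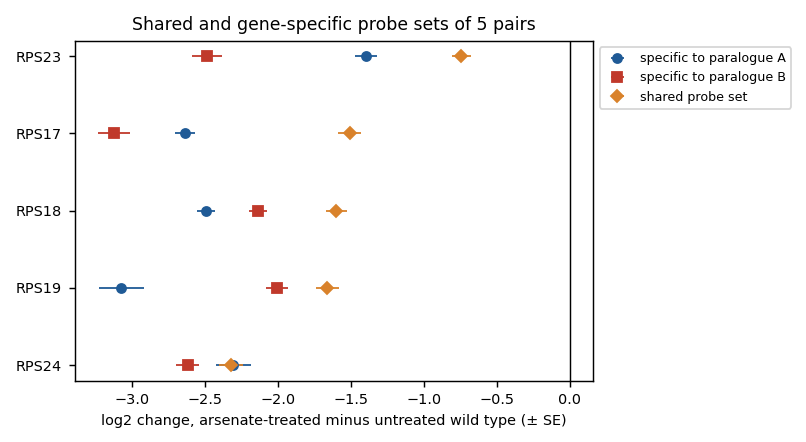
Log2 change (arsenate-treated minus untreated wild type, with standard error) of the shared probe set and of the probe sets specific to paralogue A and B, for 5 pairs that have all of them. The shared probe set lies nearest to 0 in 4 of the 5.

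The paralogues of a pair were compared by taking, on each array, the log2 signal of A minus that of B and testing the change of this difference. Levels of different probe sets were not compared. In treated against untreated WT cells the change was unequal for 19 of the 21 small subunit pairs (limma over all 52 A and B pairs of the table, where 86.5% were unequal). The 52 pairs are these 21 RPS pairs, 27 RPL pairs and 4 others. A share of all pairs, here and below, is thus mostly one of ribosomal protein genes and includes the members. The A gene fell more in 8 of the 19 and the B gene in 11. For 12 of the 19 the difference was under 0.5 on the log2 scale, and for 5 it was at least 2-fold. The A and B values come from different probe sets, and probe sets of the same gene differed in their change by up to 0.32. Whether a pair difference near that size belongs to the genes or to their probe sets was not tested. The median size of the difference was 0.42 over the 21 pairs and 0.57 over all 52.

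RPS22A, which encodes a body protein, had 639, 735 and 603 in treated WT cells, against 6250.1, 5828 and 6285 in untreated ones. RPS22B had 2172, 2211 and 2265 in treated WT cells, against 4413, 4110.4 and 4439 in untreated ones. All 6 values of RPS22A and RPS22B in treated cells lay below the untreated ones, but the A gene fell 9.32-fold and the B gene 1.95-fold, a difference of -2.26 ± 0.10 on the log2 scale (adjusted p = 3.94e-13, limma). RPS22B is known to carry introns, and RPS22A has none.

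RPS26 differed as much in the other direction. Its protein lies at the mRNA exit and is known to leave mature ribosomes under some stresses. RPS26A had 3176, 3093 and 2919 in treated WT cells, against 6259.7, 6275 and 6451 in untreated ones, and RPS26B had 434, 467 and 445 in treated WT cells, against 4407, 3951 and 4572 in untreated ones. The A gene fell 2.07-fold and the B gene 9.6-fold, a difference of 2.21 ± 0.09 on the log2 scale (adjusted p = 1.2e-13, limma).

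RPS14, a platform protein, was next. RPS14A had 2759.9, 3086 and 3050.4 in treated WT cells, against 8919, 8255 and 8171 in untreated ones, and RPS14B had 276, 406 and 348 in treated WT cells, against 2909, 2628 and 3106 in untreated ones. The difference was 1.57 ± 0.13 (adjusted p = 2.06e-09, limma). RPS14B and RPS22A, the members of their pairs that fell more, are neighbours in the gene table, with the large subunit gene RPL39 on the other side of RPS22A. The other pairs among the 8 largest differences were RPS23A/RPS23B, a protein of the decoding centre (1.09), RPS19A/RPS19B, a head protein (-1.07), RPS28A/RPS28B, also of the head (0.80), RPS1A/RPS1B, a platform protein (-0.61) and RPS17A/RPS17B (0.49), where a negative value means that the A gene fell more. RPS17A/RPS17B turned to -1.12 when the brightest probe set, a shared one, stood for RPS17B. The unequal change of RPS1A/RPS1B is not seen in the authors' deposited table for treated against untreated WT cells. There RPS1A has a fold of -5.33 (bounds of -4.71 and -6.08) and RPS1B one of -5.29 (bounds of -4.61 and -6.15).

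The smallest differences were those of RPS25A/RPS25B, at -0.09 ± 0.09 (adjusted p = 0.322), and RPS10A/RPS10B, at 0.10 ± 0.13 (adjusted p = 0.456, both limma), and neither passed. RPS10A/RPS10B passed with the mean of a gene's probe sets and with the brightest probe set, at 0.54 (adjusted p = 0.00233, limma) with the brightest.

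**Figure D3:**
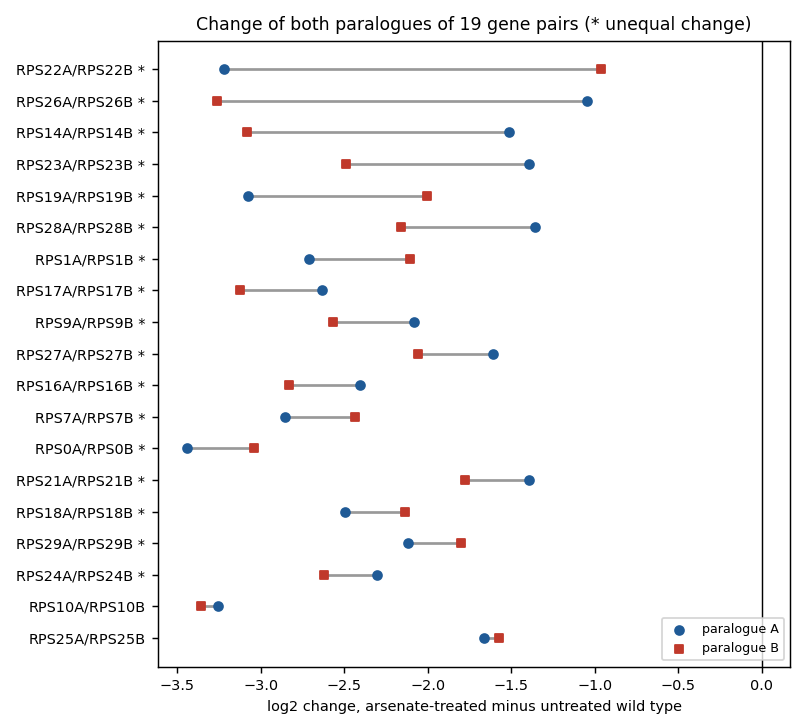
Log2 change of paralogue A (circles) and paralogue B (squares) in arsenate-treated against untreated wild-type cells for 19 pairs, ordered by the size of the difference. Stars mark the 17 pairs whose change was unequal, with RPS22A/RPS22B and RPS26A/RPS26B widest apart and in opposite order.

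Loss of Yap1 moved few members. Under arsenate, 3 of the 60 were lower in yap1 than in WT cells (9.37% of all features were lower) and 3 were higher (9.59% of all features). The median change was -0.06 over the members and 0.05 over all features. RPS18B, one of 2 genes for a head protein, had 789, 753 and 714 on the yap1 arrays, against 1407, 1448 and 1577 on the treated WT arrays. The groups lay far apart, and RPS18B was 1.96-fold lower (-0.97 ± 0.06, adjusted p = 6.69e-08, limma). Its paralogue RPS18A had 1367, 1327 and 1238 in yap1, against 1209, 1297 and 1313 in treated WT cells, and these overlapped (0.04 ± 0.06, adjusted p = 0.673). The probe set shared by RPS18A and RPS18B had 1646, 1747 and 1596 in yap1, against 2328, 2511 and 2672 in treated WT cells, a change of -0.59 ± 0.07 (adjusted p = 4.23e-05, limma).

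In the authors' deposited table for yap1 against WT cells under arsenate, RPS18B is the single small subunit probe set listed, at a fold of -2.12 with bounds of -1.88 and -2.38. That table lists only part of the probe sets, by a rule that need not match the threshold used here. Absence from it does not show that a gene was unchanged. The genes next to RPS18B in the gene table are YOX1, which changed by 0.19 in yap1 (adjusted p = 0.469), and YML6, which changed by -0.16 (adjusted p = 0.215, limma), so neither passed. Beyond YOX1 lies TSA1, a peroxiredoxin gene, which fell by 0.25 (adjusted p = 0.0163, limma). Beyond YML6 lies RPS17A (0.05, adjusted p = 0.637, limma).

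The other calls in yap1 were smaller. The count of 3 lower members became 5 without treated WT replicate 1 or yap1 replicate 2, and the count of 3 higher ones became 0 or 1 without any one treated WT array and without yap1 replicate 1 or 2. RPS19A had 816, 979.5 and 772 in yap1, against 549.8, 609 and 604 in treated WT cells, and was higher by 0.54 ± 0.15 (adjusted p = 0.0275, limma). RPS1A was higher by 0.47 and RPS25B by 0.24, and RPS1B was lower, at -0.32. None of these 4 calls held with median centring or with no normalization between arrays. The RPS19A call also ended without any one of the 3 treated WT arrays or yap1 replicate 1 or 2 (adjusted p up to 0.25). That of RPS1A ended without treated WT replicate 2 or yap1 replicate 1 or 2 (up to 0.275). That of RPS1B ended without treated WT replicate 3 or yap1 replicate 1 or 3 (up to 0.43), and that of RPS25B when any one of 10 arrays was left out (up to 0.7). The RPS1B and RPS25B calls also ended when only the arrays of yap1 and treated WT cells were fitted.

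Between paralogues, 4 of 21 pairs changed unequally in yap1 against WT cells (15.4% of all pairs). On the arrays of yap1, RPS18A minus RPS18B was 0.79, 0.82 and 0.80 on the log2 scale, against -0.22, -0.16 and -0.26 in treated WT cells, a change of 1.02 ± 0.07 (adjusted p = 1.33e-09, limma). RPS1A/RPS1B changed by 0.79 ± 0.12 (adjusted p = 0.000104) and RPS19A/RPS19B by 0.46 ± 0.11 (adjusted p = 0.007, limma). These 3 calls held in every alternative tried. RPS25A/RPS25B changed by -0.27 (adjusted p = 0.0387, limma), a call that ended without any one treated WT array, yap1 replicate 1 or 2 or untreated WT replicate 3 (adjusted p up to 0.221). This call also ended when only the arrays of yap1 and treated WT cells were fitted, and without the untreated group.

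**Figure D4:**
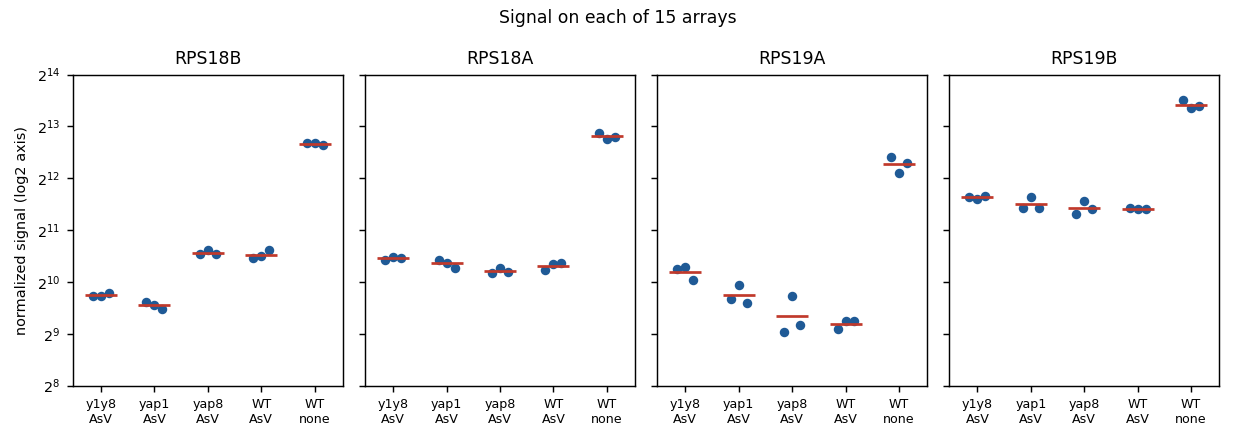
Normalized signal (log2 axis) of RPS18B, RPS18A, RPS19A and RPS19B on each of the 15 arrays, with AsV for arsenate. Points are arrays and lines are means of 3. RPS18B stands lower on the y1y8 and yap1 arrays than on the treated wild-type arrays while RPS18A does not, and RPS19A stands highest among treated arrays in y1y8.

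Loss of Yap8 alone gave no call. Against WT cells under arsenate, 0 of the 60 members passed in yap8 in either direction by limma (0.125% of all features did), with 13 members at an unadjusted p under 0.05, as were 6.53% of all features. The changes ran from -0.36 to 0.19 with a median of -0.08, which became 0.06 with no normalization between arrays, where the median of all features was 0.14. RPS18B had 1488, 1577 and 1479 in yap8, against 1407, 1448 and 1577 in treated WT cells. Of the pairs, 0 of 21 changed unequally (3.85% of all pairs), with 4 at an unadjusted p under 0.05, as were 23.1% of all pairs.

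In y1y8, 2 of the 60 members were lower than in treated WT cells (9.87% of all features) and 17 were higher (10.2% of all features). The median change was 0.15 over the members and 0.05 over all features. RPS18B had 854, 846 and 886 in y1y8, against 1407, 1448 and 1577 in treated WT cells, a change of -0.78 ± 0.06 (adjusted p = 6.26e-07, limma), with no overlap. The probe set shared by RPS18A and RPS18B changed by -0.43 ± 0.07 (adjusted p = 0.000618) and RPS18A by 0.14 ± 0.06 (adjusted p = 0.119, limma). The shared call was lost with no normalization between arrays (adjusted p = 0.174).

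RPS19A was the member with the largest rise, with 1209.9, 1249 and 1048 in y1y8, against 549.8, 609 and 604 in treated WT cells. It was 1.99-fold higher (0.99 ± 0.15, adjusted p = 0.000456, limma), and this call held in every alternative. Even so all 3 y1y8 arrays stayed well under the untreated WT arrays, at 5454, 4391 and 5040.1. Next came RPS14B (0.54), RPS10B (0.52), RPS1A (0.48), RPS10A (0.48) and RPS9A (0.48), whose calls were each lost with median centring and with no normalization between arrays. The RPS10A call also ended without treated WT replicate 1 and with the brightest probe set, where the change was 0.29, that of RPS14B without treated WT replicate 1 or 3 or y1y8 replicate 2 or 3 or with only those 2 groups fitted, that of RPS1A without treated WT replicate 2 or y1y8 replicate 1 or 2, and those of RPS10B and RPS9A when any one of 9 arrays was left out or only the arrays of y1y8 and treated WT cells were fitted (adjusted p up to 0.218 over the 5 genes). The count of 17 fell to 1 with either of these settings, to 7 with median centring on genes other than ribosomal proteins, to 8 without treated WT replicate 1 and to 9 without y1y8 replicate 3. The yap1, yap8 and y1y8 arrays were all set against the same 3 treated WT arrays.

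**Figure D5:**
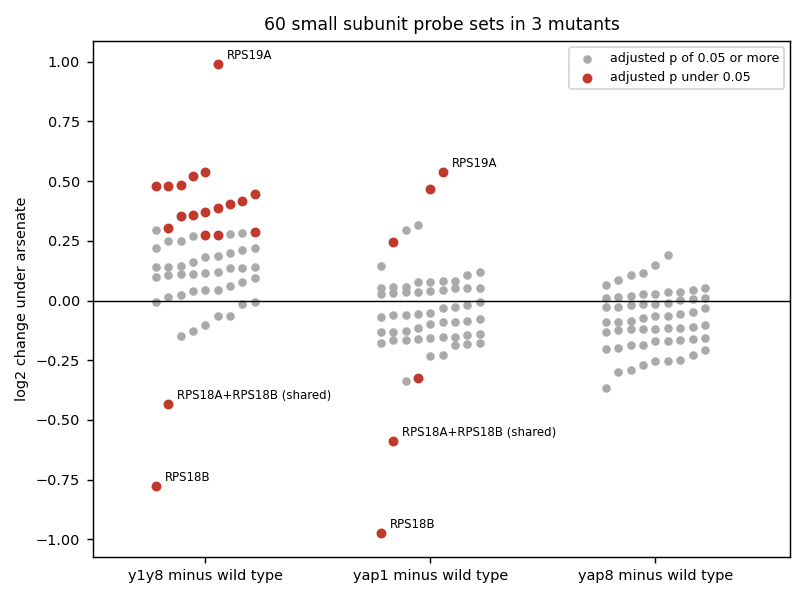
Log2 change of the 60 small subunit features in y1y8, yap1 and yap8, each against wild type and all under arsenate (position within a column carries no meaning). Red points passed at an adjusted p under 0.05, and RPS18B is the lowest point in both y1y8 and yap1.

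Of the pairs, 6 of 21 changed unequally in y1y8 against treated WT cells (21.2% of all pairs). They were RPS18A/RPS18B (0.92), RPS19A/RPS19B (0.77), RPS1A/RPS1B (0.61), RPS14A/RPS14B (-0.52), RPS27A/RPS27B (0.31) and RPS25A/RPS25B (-0.27). The first 4 held in every alternative. The RPS27 and RPS25 calls ended with 5 other settings and without treated WT replicate 1 or 2 or y1y8 replicate 1 or 2, and the RPS25 call also without treated WT replicate 3 (adjusted p up to 0.18 and 0.169).

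Set against yap1, y1y8 gave 0 calls of 60 by limma (0.125% of all features in either direction), with 37 members at an unadjusted p under 0.05, as were 7.03% of all features. Of the 60 changes, 55 were above 0, with a median of 0.22 where that of all features was -0.003. These members were read on the same arrays, so they are not separate observations. The pairs gave 0 of 21 (1.92% of all pairs), with 5 at an unadjusted p under 0.05, as were 23.1% of all pairs, and 2 passed without yap1 replicate 2.

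Set against yap8, y1y8 had 2 members lower (9.96% of all features) and 25 higher (9.36% of all features), with a median of 0.24 where that of all features was 0.05. RPS18B had 854, 846 and 886 in y1y8, against 1488, 1577 and 1479 in yap8, a change of -0.81 ± 0.06 (adjusted p = 3.66e-07, limma), and the shared RPS18 probe set changed by -0.31, a call lost with 3 of the scalings (adjusted p up to 0.171). RPS19A had 1209.9, 1249 and 1048 in y1y8, against 527, 847 and 577 in yap8, and was higher by 0.87 ± 0.15 (adjusted p = 0.00123, limma), although yap8 replicate 2 stood apart from the other 2 yap8 arrays. RPS10B (0.60), RPS22A (0.58), RPS16B (0.57), RPS1A (0.51) and RPS17A (0.50) followed, and each of these 5 calls was lost with no normalization between arrays and, except for that of RPS22A, with median centring. The RPS10B call also ended without yap8 replicate 1 or 2 or y1y8 replicate 2 (adjusted p up to 0.204). The count of 25 fell to 3 with median centring, to 1 with no normalization, to 12 with median centring on genes other than ribosomal proteins, to 15 when the fit held only the arrays of y1y8 and yap8, to 14 without yap8 replicate 1 and to 15 without y1y8 replicate 2. Of the pairs, 5 of 21 changed unequally (19.2% of all pairs), namely RPS18A/RPS18B (1.05), RPS19A/RPS19B (0.67), RPS14A/RPS14B (-0.51), RPS22A/RPS22B (0.42) and RPS25A/RPS25B (-0.28). The RPS25 call ended without yap8 replicate 1 or 3 or y1y8 replicate 2, and with only those 2 groups fitted (adjusted p up to 0.148).

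The sum of the changes in yap1 and yap8 can be set beside that in y1y8, a comparison added after the values were seen. The departure of y1y8 from this sum was above 0 for all 60 members, with a median of 0.30 where that of all features was -0.01. By limma 0 of the 60 passed (0% of all features were called higher and 0.0534% lower), with 31 members at an unadjusted p under 0.05, as were 4.34% of all features. The departures of the members ran from 0.05 to 0.70. RPS13 stood at 0.42 ± 0.14 (adjusted p = 0.888, limma), RPS19A at 0.34 ± 0.22 and RPS18B at 0.16 ± 0.09, none of them the largest. The 3 changes share the treated WT arrays. All 60 members were read on the same arrays, so counts of members are not counts of separate observations.

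Genes that act on or beside these proteins were read from lists chosen with earlier results of these data known. With arsenate 39.3% of all features were lower and 41.7% higher in WT cells. Of 78 large subunit RPL features, 76 fell and 1 rose in treated against untreated WT cells, with a median of -2.16, close to that of the small subunit. ASC1, a small subunit protein outside the RPS symbols, changed by -1.51, and it was lower in yap1 (-0.23) and in y1y8 (-0.26) than in treated WT cells. In yap8 ASC1 changed by -0.27 (adjusted p = 0.0675, limma). Of 16 regulators of ribosomal protein genes, 12 fell and 3 rose. RAP1, the factor bound at most of these promoters, fell by 2.55, the corepressor gene CRF1 rose by 2.13, and the repressor gene TOD6 fell by 1.82. The activator genes FHL1 (-0.79) and IFH1 (-1.02) fell, and SFP1 changed by 0.20 (adjusted p = 0.131, limma).

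Of 18 assembly factors and dedicated chaperones of the small subunit, 13 fell and 2 rose in treated WT cells (39.3% and 41.7% of all features), with RRP12 (-2.41), LTV1 (-2.31) and ENP1 (-2.12) changing most. TSR2, which escorts Rps26, changed by -1.33, and YAR1, which escorts Rps3, rose by 0.73. FAP7, which handles Rps14, changed by -0.09 with arsenate (adjusted p = 0.369) and was the one gene of this list lower in yap1 (-0.92 ± 0.09, adjusted p = 3.83e-06) and in y1y8 (-0.76 ± 0.09, adjusted p = 2.17e-05, limma). Of 5 genes of ribosome preservation and 40S surveillance 3 fell and 1 rose, among them STM1 (-1.37), HEL2 (-0.55) and HBS1 (0.31). In yap1 the regulators had 4 lower and 2 higher (9.37% and 9.59% of all features), led by CRF1 (-0.96), DOT6 (0.69) and RIM15 (-0.50). In y1y8 against treated WT cells 3 regulators were lower and 3 higher (9.87% and 10.2% of all features), with DOT6 at 0.83 and CRF1 at -0.83. Of the large subunit features, 5 were lower and 1 higher in yap1 (9.37% and 9.59% of all features), 1 lower and 23 higher in y1y8 (9.87% and 10.2% of all features), and none passed in yap8. No gene of the regulator, assembly or surveillance lists passed in yap8.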

How the data were processed

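Total RNA, isolated with hot phenol and labelled with biotin per the labels' protocols, was hybridized to Affymetrix yeast arrays. The deposited scanner tables hold 1 intensity (Signal) and a detection call per probe set, and the submitters' processing notes name Partek. How Signal was summarised from the probes is not known here. The authors' deposited comparison tables hold a fold change with its bounds, a signed score of group means in which a fall is a negative fold. A further 36 per-sample columns were not used. Signal was quantile-normalized over all 10928 probe sets, floored at 1 and put on the log2 scale. One feature per gene was taken from gene-specific probe sets (unmarked identifiers first, then those ending in _x_at, the brightest among equals), and 114 shared probe sets stood as features of their own, which gave 5622. This replaced a planned choice of the brightest probe set, which became an alternative, since shared probe sets carry one paralogue's name. A group-means model over 15 arrays was fitted with limma 3.58.1 in R 4.3.3, with Benjamini-Hochberg adjustment over all features or, for pairs, over all 52 pairs, two-sided, at 0.05. The fits were tested on simulated data. Alternatives covered normalization, offset, detection filter, probe set choice, the arrays fitted, the replicate number as a block, and each array left out.

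The text names members from the 8 largest and 4 smallest arsenate changes, all members without a paralogue, up to 6 calls each way per mutant comparison, the 8 most unequal pairs and the least unequal pairs, and up to 3 genes of each other list. FHL1, IFH1, SFP1, TSR2, FAP7, RPS0B, RPS18A and the neighbours of RPS18B were chosen after their values were seen. The members and lists were chosen with earlier results of these data known. Some members are not reported by name here, though they stay in the counts. Coordinates are left out, as no build could be tied to the files.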

Additional observations from a re-analysis of the deposited data

How the results depend on the processing

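The named results number 64, each a gene, shared probe set or pair in 1 comparison, so that some genes and pairs count more than once. Of these, 42 kept their direction and their side of the threshold in every alternative, 25 of 27 in the arsenate comparison and 17 of 37 in the mutant ones. Median centring moved the arsenate median of all features to -0.37, with the members at -2.82, which is -2.45 relative to it, and no normalization moved it to 0.14, with the members at -2.31 (-2.45 relative to it). All members tested fell in every setting, 60 of 60 except without _s_at and _x_at probe sets, where 50 were tested, and with the brightest probe set of any kind, where 53 were. Counts of members higher in yap1 were 0 with median centring, 0 with no normalization and 1 with centring on genes other than ribosomal proteins, in place of 3. For y1y8 against WT the higher count of 17 became 1, 1 and 7 under those settings, and the lower count of 2 became 1 with no normalization, without _s_at and _x_at probe sets, and with the brightest probe set of any kind, a setting added after seeing the data. For y1y8 against yap8 the higher count of 25 became 3, 1 and 12, and 15 with only both groups fitted, and the lower count of 2 became 1 under those 3 scalings, without _s_at and _x_at probe sets and with the brightest probe set. Unequal pairs in y1y8 against yap1 became 2 under the 3 scalings, in place of 0. With the brightest probe set RPS17A/RPS17B reversed to -1.12, as a shared probe set then stood for one gene. With 1 array left out, unequal arsenate pairs were 16 to 19, members lower and higher in yap1 2 to 5 and 0 to 4, unequal pairs 3 to 4, members higher in y1y8 against WT 8 to 18, unequal pairs 4 to 6, unequal pairs in y1y8 against yap1 0 to 2, and members higher in y1y8 against yap8 14 to 28, with 4 to 6 unequal pairs. Arrays with the same replicate number did not deviate together (correlations of -0.33 to 0.41, median 0.02, 7 of 30 over 0.1, and 4 of 15 arrays closest to their own number), and with the replicate block 15 members were higher in y1y8 against WT, 24 in y1y8 against yap8, 2 in yap1 and 60 lower with arsenate, and the calls of RPS25B in yap1 and of RPS10B in y1y8 against WT were lost. The cause of these shifts was not tested. The number of arrays, 3 a group, limits the precision.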

Other observations

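In the authors' deposited table for treated against untreated WT cells all 66 small subunit probe sets are listed, each as lower, with folds between -10.28 for RPS0A and -1.83 for the shared RPS23A probe set. Their table for yap8 lists none of them, but it too holds only part of the probe sets, so absence does not show that a gene was unchanged.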
